A study of Ovis aries with 30 samples.

Results

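The 10 genes described here are the growth hormone and insulin-like growth factor (IGF) axis as the liver carries it. They are the ligands IGF1 and IGF2, the binding proteins IGFBP1, IGFBP2, IGFBP3 and IGFBP4, the acid-labile subunit IGFALS, the growth hormone receptor GHR, its signal transducer STAT5B and the feedback inhibitor SOCS2. They were chosen by name, and all 10 were found among the 31304 gene rows of the count table and passed the filter on low counts, which kept 17840 genes. RNA was sequenced from whole liver of 30 F1 sheep lambs, each library from its own ear tag. The groups were 7 biosolids males, 7 control males, 8 biosolids females and 8 control females. Biosolids lambs were born to ewes exposed to biosolids before conception and through gestation; biosolids are treated sewage sludge spread on pasture, in which many pollutants occur together at low levels. Control lambs came from ewes without that exposure. The sources used here do not state the age, breed, litter or feeding state of the lambs. The series was made to ask whether the exposure alters the liver transcriptome, and in which sex.

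Growth hormone from the pituitary binds GHR on hepatocytes, and the kinase JAK2 then phosphorylates STAT5B, which enters the nucleus and drives transcription of IGF1, IGFALS and SOCS2. Circulating IGF1 and IGF2 are mostly held in a complex with IGFBP3 and IGFALS, which prolongs their life in blood, while smaller binding proteins carry the rest. IGF2 is the main IGF of fetal life, and IGF1 takes over under growth hormone after birth. IGFBP1 is induced in liver when insulin is low, and IGFBP2 is likewise raised by fasting. In rodents the pattern of growth hormone release sets much of the sex difference of the liver.

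Total counts lay between 18.7 and 51.9 M (mega-counts) per library. The library of biosolids male 8778 held 87.5% ribosomal RNA counts, against 0.299 to 7.69% in the other 29, which left it 2.34 M other counts; the rarest of the 10 genes there, STAT5B, still had 56 counts. Apart from it, control female 8263 was least like the others, with a median Spearman correlation of 0.917, and biosolids female 8649 came next with 0.941. The library labelled control male 8408 goes partly against its label. It had 322 CPM (a gene's counts relative to the library total, here without ribosomal RNA) of the X-linked lncRNA LOC101112291, where no other male passed 2.16 CPM and the females had 318 to 1076 CPM. The 88 genes of the Y chromosome summed to 177.5 CPM in it, against 163.9 to 222.8 CPM in the other males and 12.5 to 25.9 CPM in females. It was kept as a male, and fold changes of the 10 genes that rest on it are given with and without it. Marker lists, fold changes of other genes and spreads within groups are given with it only. Hepatocyte markers summed to between 84194 and 129859 CPM in all lambs. Of the macrophage markers, CD68 was at 0 in all groups. Tag numbers of biosolids and control lambs do not overlap, and the labels give no flock or day of processing. Whether either differed between biosolids and control lambs is not known, and such a difference could not be told apart from exposure. In bulk liver, fewer cells of a type and less RNA per cell cannot be told apart either.

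IGFBP2, IGFBP1, IGF2 and IGFBP4 were the most abundant transcripts of the axis per length. Levels of different genes are compared here only as TPM, which divide counts by exon length and leave out ribosomal RNA. IGFBP2 had a median of 4161 TPM over the 30 lambs, IGFBP1 2187 TPM, IGF2 1845 TPM and IGFBP4 1536 TPM. Among 21287 protein-coding rows these 4 genes ranked 20, 45, 55 and 77 by median TPM. IGFBP3 followed with a median of 489 TPM, IGFALS with 193 TPM, IGF1 with 57.2 TPM, GHR with 36.7 TPM, STAT5B with 14.7 TPM and SOCS2 with 6.01 TPM. Only at 2 steps of this order did the ranges over lambs not overlap, between IGFBP4 and IGFBP3 and between GHR and STAT5B. IGFBP1 stood above IGF2 in 16 of 30 lambs, so those neighbours had no fixed order, whereas IGFBP3 exceeded IGFALS and IGFALS exceeded IGF1 in 30 of 30. The TPM of GHR and SOCS2 are divided by summed exon lengths of 37249 and 46662 bases, and a transcript shorter than that sum would have a higher level per length.

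**Figure D1:**
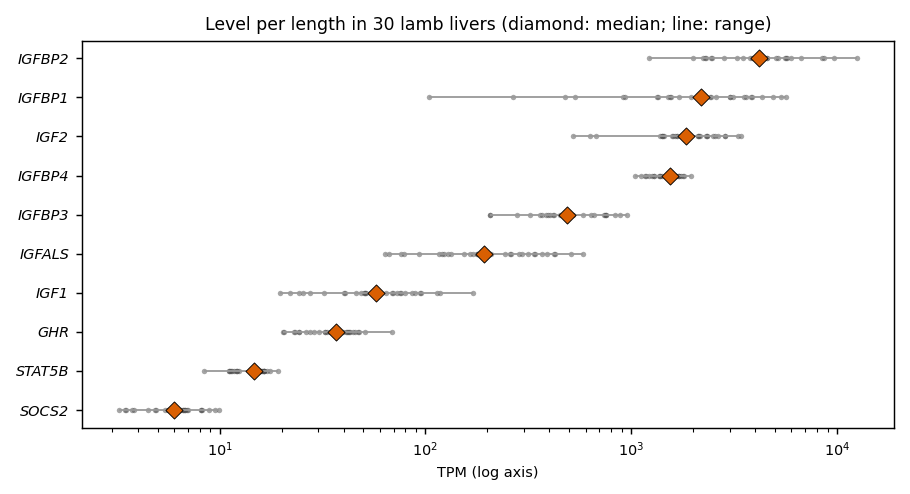
Level per length of the 10 genes in TPM on a log axis; grey points are the 30 lambs, the line spans their range and the diamond is the median. IGFBP2 lies highest at a median of 4161 TPM and SOCS2 lowest at 6.01 TPM, and IGFBP1 has the longest line.

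How much a gene varied among lambs of the same group differed widely within the axis. IGFBP1 had a within-group SD of 1.37 on the log2 scale, and its highest lamb held 53.9 times the CPM of its lowest. That lowest lamb was 8778, and without it the SD was 1.12 and the ratio 22.8. IGFALS followed with an SD of 0.82, IGFBP2 with 0.77, IGF2 with 0.66, IGF1 with 0.65 and IGFBP3 with 0.55. At the other end, STAT5B had an SD of 0.29 and IGFBP4 of 0.25, with a 2.01-fold range over all 30 lambs. The 3779 genes with a mean log2 CPM at or above that of STAT5B, the lowest member, had a median SD of 0.33. They were not matched to the level of each member. IGFBP1 varied more than 99.4% of them and IGFBP4 more than 23.8%.

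IGF1, the endocrine mediator of growth hormone action, lies on chromosome 3 at 171766875 to 171847317 on the minus strand (positions in assembly ARS-UI_Ramb_v3.0, counted from 1). Its lowest, median and highest values were 111, 242 and 511 CPM in biosolids males and 195, 232 and 308 CPM in control males. In biosolids females they were 53.3, 119 and 261 CPM, against 73.1, 134 and 215 CPM in control females. Biosolids and control lambs overlapped within each sex, while 13 of 14 males lay above the female median. Among biosolids males, 3 lambs exceeded every control male and 3 lay below every control male.

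IGF2, the growth factor of the fetal liver, lies on chromosome 21 at 45774756 to 45802762 on the plus strand. It had 1300, 4893 and 7155 CPM in biosolids males and 4044, 6144 and 8901 CPM in control males as lowest, median and highest value. Biosolids females had 1557, 3582 and 6587 CPM, and control females 1456, 4223 and 8186 CPM. The groups overlapped throughout. In each exposed group, and in control females, a single lamb lay far below the rest, and these were 8778, 8649 and 8263, the 3 libraries named above as least like the others or rich in ribosomal RNA.

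IGFALS, which locks the IGF and IGFBP3 complex in the circulation, lies on chromosome 24 at 1889395 to 1892418 on the minus strand. Its lowest, median and highest values were 71.7, 236 and 399 CPM in biosolids males and 147, 273 and 472 CPM in control males. They were 45.2, 104 and 269 CPM in biosolids females and 59.7, 124 and 230 CPM in control females. The 7 biosolids males fell into 3 lambs at or below 91.2 CPM and 4 at or above 236 CPM, and the lowest control male had 147 CPM. IGFBP3, the main carrier of IGFs in blood, lies on chromosome 4 at 77778063 to 77786488 on the plus strand, next to IGFBP1. It had 189, 558 and 825 CPM in biosolids males, against 461, 584 and 924 CPM in control males. Biosolids females had 174, 380 and 600 CPM, against 312, 348 and 707 CPM in control females. Exposure groups overlapped in both sexes, and all 7 control males stood above the median of control females.

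GHR, the receptor at the head of the axis, lies on chromosome 16 at 32067877 to 32366167 on the minus strand. It had 417, 596 and 963 CPM in biosolids males and 449, 607 and 696 CPM in control males as lowest, median and highest. Biosolids females had 261, 370 and 682 CPM, and control females 286, 362 and 554 CPM. All 14 males lay above the median of the 16 females, and 2 females, both exposed, lay above the male median. STAT5B, which carries the receptor's signal to the nucleus, lies on chromosome 11 at 42050615 to 42126627 on the minus strand, where 190 exon bases are shared with STAT5A on the opposite strand. It had 19.9, 35.5 and 45.3 CPM in biosolids males and 32, 39.3 and 43.2 CPM in control males. Biosolids females had 24.4, 29.4 and 39.9 CPM, and control females 24.2, 31.5 and 37.5 CPM, and all groups overlapped.

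**Figure D2:**
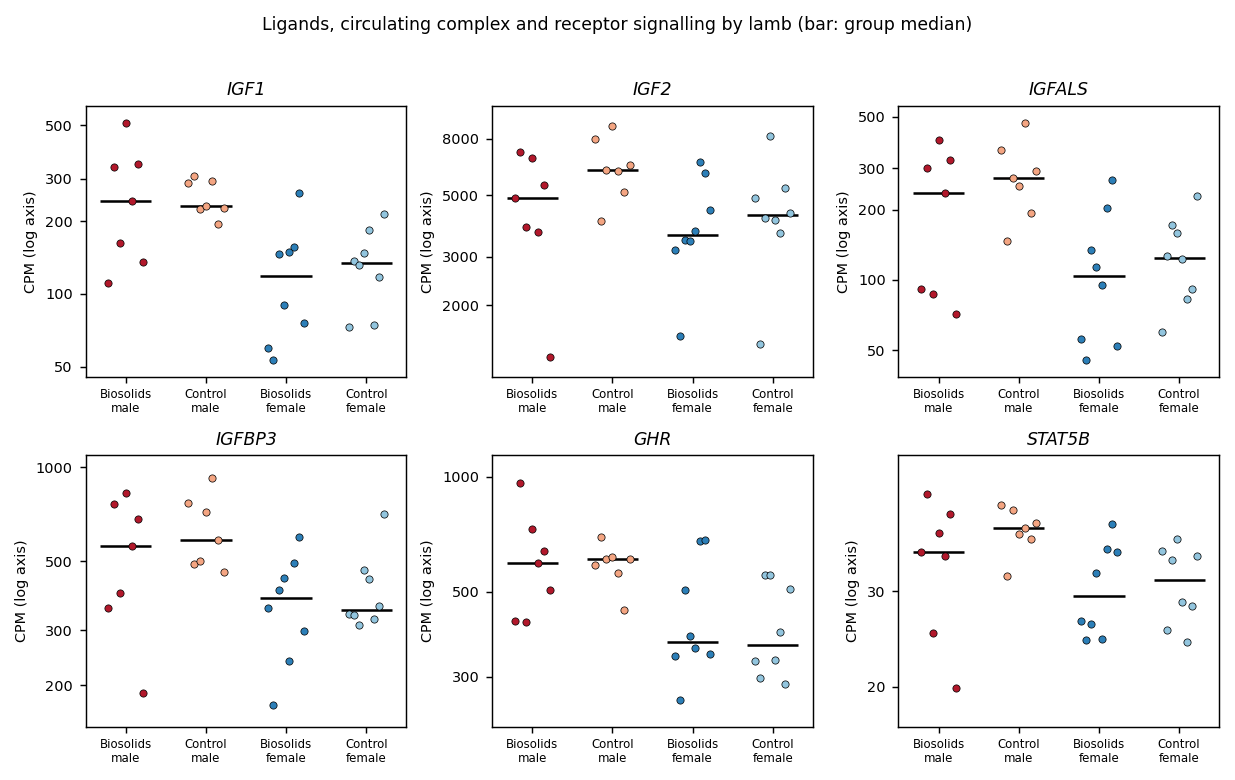
CPM per lamb on a log axis for IGF1, IGF2, IGFALS, IGFBP3, GHR and STAT5B; each point is a lamb and the bar is the group median. Males sit above females for IGF1, with medians of 242 and 232 CPM against 119 and 134 CPM, and the 7 biosolids males are more widely spaced than the 7 control males.

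SOCS2, which damps growth hormone signalling, lies on chromosome 3 at 129873914 to 129923063 on the plus strand and shares 409 exon bases with the antisense LOC121819095. It had 77.8, 119 and 166 CPM in biosolids males, against 59.5, 118 and 182 CPM in control males. Biosolids females had 55.4, 103 and 144 CPM, against 55.9, 93.8 and 145 CPM in control females. Medians of the exposed and control lambs were close in each sex, and all ranges overlapped. No source used here says whether counting was by strand; the antisense LOC121819095 had at most 61 counts and STAT5A at most 543 counts in any lamb, against medians of 3760 for SOCS2 and 1200 for STAT5B.

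IGFBP1, an acutely regulated binding protein that falls when insulin rises, lies on chromosome 4 at 77793159 to 77797436 on the minus strand and shares 159 exon bases with CCDC201. It had 31.6, 780 and 1491 CPM in biosolids males and 315, 609 and 1202 CPM in control males. Biosolids females had 151, 683 and 1505 CPM, and control females 74.8, 574 and 1703 CPM. The lowest lamb was 8778, where the gene had 89 counts and CCDC201 had 23. CCDC201 had at most 1608 counts, in lamb 8775, where IGFBP1 had 68580. No group stood apart from another, and every group held lambs with several times the level of others.

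IGFBP2, a binding protein of fetal and fasting liver, lies on chromosome 2 at 218627894 to 218657329 on the plus strand. It had 1124, 1755 and 5725 CPM in biosolids males, against 669, 2059 and 3049 CPM in control males. Biosolids females had 1056, 1972 and 4836 CPM, against 904, 2661 and 4351 CPM in control females. IGFBP4, a binding protein that mostly inhibits IGF action, lies on chromosome 11 at 40422668 to 40434290 on the plus strand. It had 1596, 2094 and 2674 CPM in biosolids males and 2101, 2714 and 3170 CPM in control males. All 7 biosolids males were below the control male median, though 3 of them exceeded the lowest 2 control males. Biosolids females had 1578, 2166 and 2601 CPM, and control females 1754, 2202 and 2716 CPM.

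**Figure D3:**
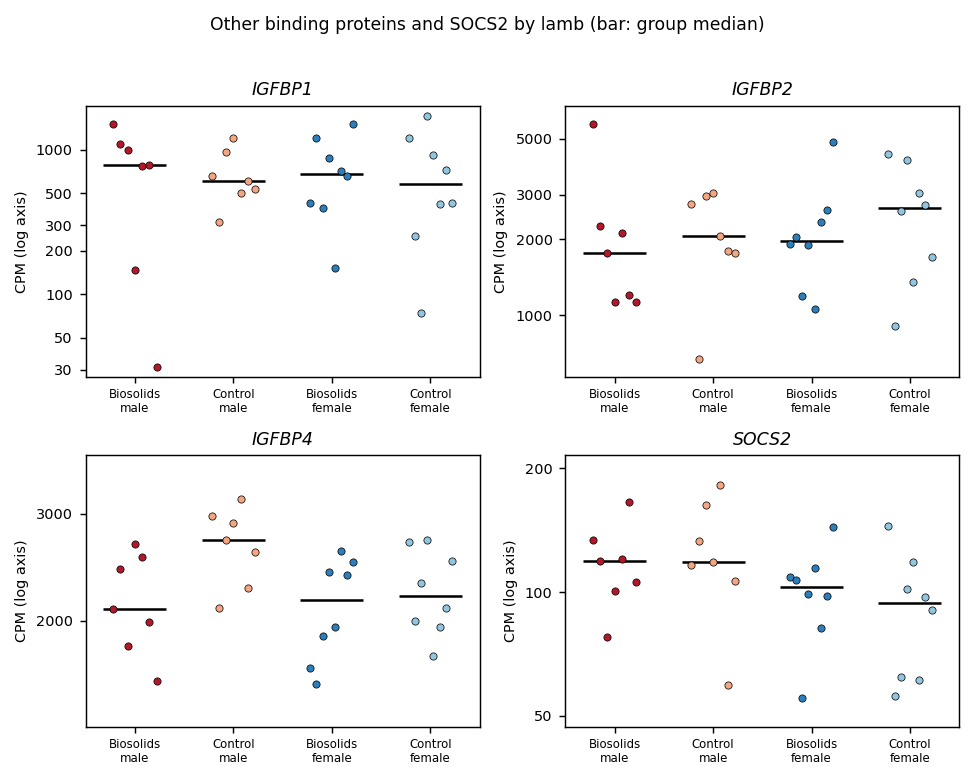
CPM per lamb on a log axis for IGFBP1, IGFBP2, IGFBP4 and SOCS2; points are lambs and the bar is the group median. IGFBP1 spans 31.6 to 1703 CPM, IGFBP4 only 1578 to 3170 CPM, and the biosolids male median of IGFBP4 is 2094 CPM, against 2714 CPM in control males.

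The exposure comparisons asked whether biosolids changed the axis within each sex. No member passed in females, in males or over both sexes by edgeR's quasi-likelihood test at a Benjamini-Hochberg adjusted p under 0.05, where 0% of the 17840 genes were called in each of these 3 comparisons. At an unadjusted p under 0.05 the count of members was 0 in all 3, while 3.65% of all genes passed in females, 5.44% in males and 4.3% over both sexes. DESeq2 called 0, 4 and 4 genes, and limma voom called 0 in each, with 0 members among them. The ranges of biosolids and control lambs overlapped for every member in both sexes, where 0% of all genes in females and 0.0561% in males did not overlap. In females, log2 fold changes (biosolids minus control) of the 10 genes lay between -0.22 for IGFBP2 and 0.14 for SOCS2. In males they lay between -0.43 for IGF2 and 0.15 for IGFBP1. The member median was -0.10 in females, where that of all genes was -0.02, and -0.13 in males, where that of all genes was 0.01. In males the 11 hepatocyte markers tested also all had the lower mean in biosolids lambs, at a median of -0.23, with 0 at an unadjusted p under 0.05, and their part in the members' values was not tested.

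IGFBP4 in males came nearest to the threshold, with 2165 ± 399 CPM in the 7 biosolids males and 2673 ± 385 CPM in the 7 control males (± SD). On the log2 scale the difference was -0.30 ± 0.16 (± standard error), and the edgeR quasi-likelihood test gave an adjusted p of 0.816 (unadjusted 0.0598). Without lamb 8778 it was -0.24, and without control male 8408 it was -0.26. IGF2 in males had a log2 fold change of -0.43 ± 0.32 that depended on lamb 8778 and was -0.27 without it. IGFALS at -0.39 ± 0.40 and IGFBP3 at -0.24 ± 0.27 in males depended on both libraries that stand apart. Without 8778 they were -0.25 and -0.09, and without 8408 they were -0.22 and -0.12. IGF1 in males was at 0.06 ± 0.32 and GHR at 0.05 ± 0.22.

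The width of the intervals differed with the spread of each gene. For IGF1 the 95% interval of the log2 fold change was -0.60 to 0.72 in males and -0.74 to 0.50 in females. For IGFBP1 it was wider, -1.05 to 1.35 in males and -1.07 to 1.17 in females. For STAT5B it was narrower, -0.47 to 0.13 in males and -0.30 to 0.26 in females, and for GHR it was -0.39 to 0.49 in males and -0.29 to 0.54 in females. The difference between the sexes in their response to exposure, males minus females, was tested as an interaction. No member passed it by edgeR's quasi-likelihood test, where 0% of all genes were called, 0 members had an unadjusted p under 0.05 against 3.63% of genes, and DESeq2 called 1 gene, not a member. Its values ran from -0.28 for IGFALS to 0.24 for IGFBP2.

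**Figure D4:**
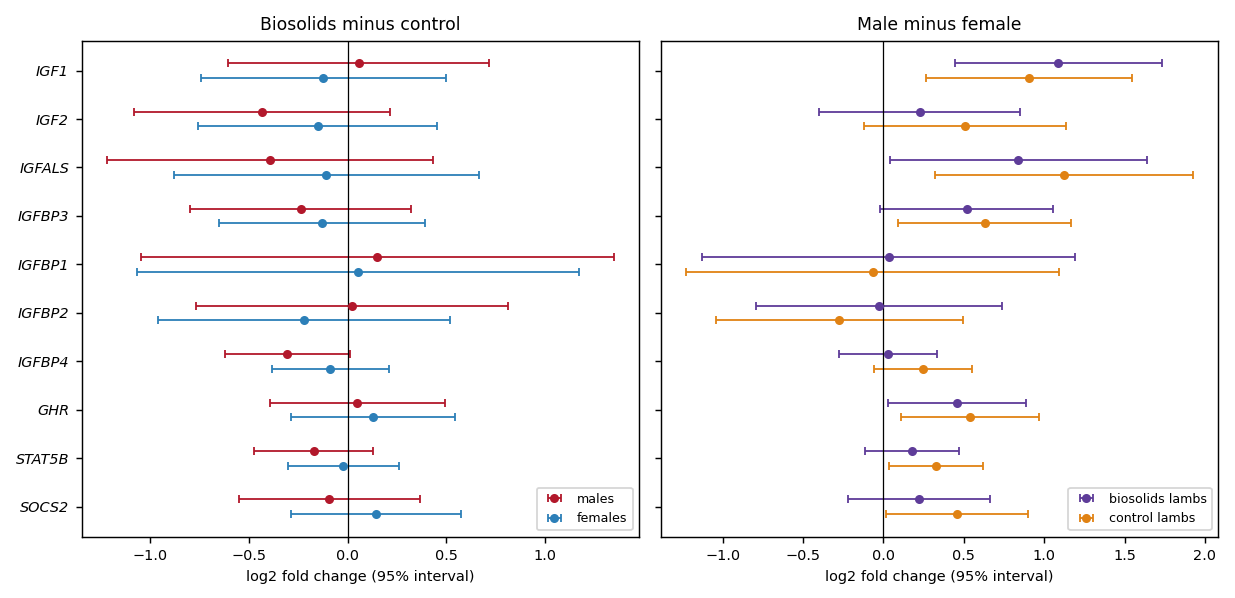
Log2 fold change with its 95% interval for each gene, biosolids minus control in males and females on the left, and male minus female in biosolids and control lambs on the right. All exposure intervals include 0, while the male minus female intervals of IGF1, IGFALS and GHR lie above 0 in both exposure groups, IGF1 at 1.09 and 0.91.

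Several genes of the axis had a higher mean in males than in females, though none passed the adjusted threshold in edgeR. In biosolids lambs IGF1 averaged 263 ± 144 CPM in males and 124 ± 69.2 CPM in females, and in controls 253 ± 43.3 CPM in males and 135 ± 49.0 CPM in females (SD). The log2 fold change of males over females was 1.09 ± 0.31 in biosolids lambs and 0.91 ± 0.31 in controls, and the edgeR quasi-likelihood test gave adjusted p = 0.589 in biosolids lambs and 0.213 in controls. IGFALS averaged 216 ± 133 CPM in biosolids males and 121 ± 79.6 CPM in biosolids females, and 284 ± 107 CPM in control males and 130 ± 54.9 CPM in control females. Its log2 fold change was 0.84 ± 0.39 in biosolids lambs and 1.12 ± 0.39 in controls. GHR had 0.46 ± 0.21 in biosolids lambs and 0.54 ± 0.21 in controls.

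Among biosolids lambs 17 genes were called for sex, or 0.0953% of those tested by edgeR's quasi-likelihood test, and 0 members. At an unadjusted p under 0.05, IGF1, IGFALS and GHR were higher in males, where 2.39% of all genes were and 4.85% passed in either direction. DESeq2 called 19 genes there and limma voom 19, with 0 members in each. Among controls 15 genes were called, or 0.0841%, and 0 members. At an unadjusted p under 0.05, 6 members were higher in males, IGF1, IGFALS, IGFBP3, GHR, STAT5B and SOCS2, and 0 were lower, where 7.74% of all genes were higher and 18.9% passed in either direction. DESeq2 called 54 genes and limma voom 64 in controls, with 0 members in each. Without control male 8408, which held the highest IGFALS and IGFBP3 of all lambs, the log2 fold changes in controls were 0.96 for IGFALS, 0.52 for IGFBP3, 0.34 for SOCS2, 0.87 for IGF1, 0.55 for GHR and 0.32 for STAT5B. Without that lamb 4 members were higher at an unadjusted p under 0.05, where 7.78% of genes were. Marker lists moved with sex in controls too, not all in the same direction. The median log2 fold change of all genes there was -0.04. Of 8 macrophage markers 6 had the lower mean in control males, at a median of -0.24, and of 9 lymphocyte markers 8 did, at -0.24. Endothelial markers were split, 6 higher and 5 lower, as were cholangiocyte markers, 4 higher and 5 lower. Of 11 hepatocyte markers 9 had the higher mean in control males, at a median log2 fold change of 0.38, and APOB, TF, AHSG, FGB and ASGR2 were higher at an unadjusted p under 0.05. Of the 12 stellate cell and fibroblast markers 11 had the higher mean in control males, at a median of 0.57, and their sum ran from 534 to 771 CPM in control males and from 358 to 583 CPM in control females. In biosolids lambs that sum was 345 to 785 CPM in males and 353 to 970 CPM in females, and 8 of 11 hepatocyte markers had the higher mean in males, at a median of 0.11. The part of these markers in the sex differences was not tested. No member had male and female ranges that did not overlap, where 0.0673% of all genes did in biosolids lambs and 0.213% in controls.

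Averaged over both exposures, a contrast added after the data were seen, males held 2.0 times the IGF1 of females. The log2 fold change was 1.0 ± 0.22, and the edgeR quasi-likelihood test gave an adjusted p of 0.0654 (unadjusted 9.54e-05). IGFALS was at 0.98 ± 0.28, IGFBP3 at 0.57 ± 0.19 and GHR at 0.50 ± 0.15, with adjusted p of 0.167, 0.188 and 0.172 by the same edgeR test. Without control male 8408 they were 0.98 for IGF1, 0.90 for IGFALS, 0.52 for IGFBP3 and 0.50 for GHR, with 0 members called. edgeR called 21 genes, or 0.118%, and 0 members, while 6 members were higher at an unadjusted p under 0.05, where 9.16% of all genes were and 19.6% passed in either direction. DESeq2 called 107 genes, among them IGF1 with an adjusted p of 0.00395 and IGFALS with 0.0425. Over all settings the adjusted p ran from 0.00395 to 0.157 for IGF1 and from 0.0173 to 0.302 for IGFALS, by edgeR, DESeq2 or limma. limma voom called 3327 genes, or 18.6%, among them IGF1, IGFALS, IGFBP3, GHR and STAT5B. In edgeR, IGF1 passed when any 1 of lambs 8378, 8690, 8733, 8735 or 8778 was left out, with an adjusted p between 0.00856 and 0.0426 by that test. IGFBP1 was at -0.02 ± 0.40, IGFBP2 at -0.15 ± 0.27, IGFBP4 at 0.14 ± 0.11 and IGF2 at 0.37 ± 0.22.

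Within groups, 22 of the 45 pairs of members varied together from lamb to lamb, and 23 did not pass. For 47 pairs, the 45 among members plus SOCS2 with CISH and IGFBP1 with PCK1, log2 CPM was taken as deviation from the group mean over 30 lambs. A two-sided permutation test with 100000 resamples within groups, adjusted by Benjamini-Hochberg over the 47 pairs, passed 23 pairs, all positive. All 23 also passed by Spearman's rho, which passed 25. An r of at least 0.46, the lowest of a pair that passed, was reached by 55.6% of the member pairs and by 7.5% of all pairs of the 17840 genes, given as a description without a test. Of those genes only 3779 had a mean level at or above that of the lowest member, and pairs were not matched for level. By Pearson's r, IGFBP1 passed with IGFBP2 alone among the members, and SOCS2 with none. By rho alone, IGF1 with IGF2 (rho = 0.47) and IGFBP1 with SOCS2 (rho = 0.44) also passed. Their adjusted p by the permutation test of rho were 0.0361 and 0.0363. IGF1 and IGFALS had r = 0.87 (rho = 0.83, permutation p = 1e-05, the smallest these resamples can give, adjusted p = 0.000117). Without the 2 lambs farthest in IGF1, r was 0.84, and within single groups it ran from 0.21 to 0.95. Lambs with more IGF1 than their group mean thus mostly had more IGFALS too.

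IGF1 with IGFBP3 had r = 0.73 (rho = 0.67, permutation p = 6e-05, adjusted 0.000403), and 0.69 without the 2 farthest lambs. IGF1 with GHR had r = 0.71 (rho = 0.71, permutation p = 0.00023, adjusted 0.00108), and 0.64 without the 2 farthest lambs. IGFALS had r = 0.82 with IGFBP3 and 0.76 with GHR. IGF1, IGFALS, IGFBP3 and GHR, the receptor with the 3 genes of the circulating complex, thus formed a set in which all 6 pairs passed. Not every group showed the link of GHR. Within single groups its r ran from 0.31 to 0.87 with IGF1, -0.13 to 0.95 with IGFALS and -0.25 to 0.87 with IGFBP3. SOCS2, a target of the same signal, was not in that set. Its r was -0.02 with IGF1, -0.07 with GHR and 0.24 with CISH, another feedback inhibitor, and none of its 10 pairs passed by Pearson's r. With IGFBP1 its r was 0.36 and its rho 0.44, and that pair passed by rho.

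IGFBP1 and IGFBP2 had r = 0.60 (rho = 0.66, permutation p = 0.00137, adjusted 0.0047), and 0.73 without the 2 lambs farthest in IGFBP1. IGFBP1 with PCK1, the gluconeogenic enzyme that insulin represses, had r = 0.56 (rho = 0.55, permutation p = 0.00555, adjusted 0.0137), and 0.50 without the 2 farthest lambs. That call was lost without lamb 8778, where r was 0.42. IGF1 with IGFBP2 had r = -0.40 (rho = -0.36, permutation p = 0.0391, adjusted 0.0656) and did not pass. IGF1 with IGFBP1 had r = -0.15, and -0.38 without lamb 8778. Among IGFBP2's pairs, the call with IGF2 was lost without 8263, 8313 or 8364, that with IGFBP4 without 8364, and that with STAT5B without any of 7 lambs.

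**Figure D5:**
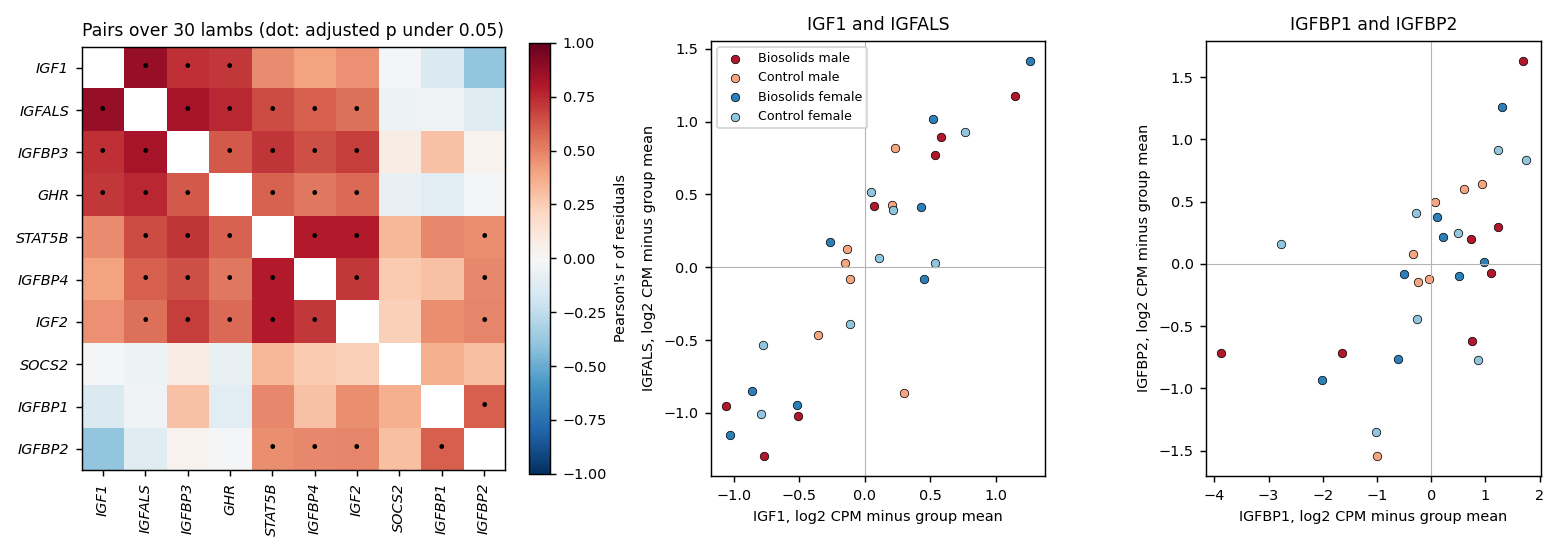
Left, Pearson's r between log2 CPM deviations from group means for the 45 member pairs over 30 lambs, with a dot where the adjusted permutation p is under 0.05; middle and right, the deviations of IGF1 with IGFALS and of IGFBP1 with IGFBP2, a point per lamb. IGF1, IGFALS, IGFBP3 and GHR form a block of high r, with 0.87 for IGF1 and IGFALS, and 0.60 for IGFBP1 and IGFBP2.

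IGF2, IGFBP4 and STAT5B were also correlated among themselves, with r = 0.79 for IGF2 and STAT5B, 0.79 for IGFBP4 and STAT5B, and 0.70 for IGF2 and IGFBP4. By the permutation test they were not separate from the genes above. All 15 pairs among these 3 and IGFALS, IGFBP3 and GHR passed, at r between 0.53 and 0.82. Leaving out no single lamb ended any of those calls. Within single groups, r of GHR was as low as -0.25 with STAT5B, -0.02 with IGF2 and -0.01 with IGFBP4. Levels of several of these genes also went with a component that many other genes share. The first principal component of 14344 genes over 29 lambs, without 8778, held 23.1% of the variance and had r = -0.92 with the mean of 74 ribosomal protein genes. IGF2 had r = 0.82 with it, STAT5B 0.81, IGFBP4 0.68 and GHR 0.63, while IGF1 had 0.29 and IGFBP1 0.18. The median absolute r of a gene was 0.45. With the log2 of counts other than ribosomal RNA, STAT5B had r = 0.50, IGF2 0.34 and IGFBP4 0.21. With the ribosomal RNA share they had -0.45, -0.01 and 0.02, over the same 29 lambs. The part of these library properties in the pairs was not tested. With that component removed, as a description without a test, IGF2 and STAT5B were left with r = 0.11, against 0.70 before, IGF2 and IGFBP4 with 0.23, against 0.65, and IGFBP4 and STAT5B with 0.49, against 0.76. The pairs that join IGF2, IGFBP4 and STAT5B to the other genes fell too. In that order, GHR was left with 0.20, 0.17 and 0.27, against 0.60, 0.53 and 0.63. IGFALS was left with 0.19, 0.37 and 0.44, against 0.47, 0.55 and 0.60. IGFBP3 was left with 0.45, 0.45 and 0.51, against 0.57, 0.58 and 0.60. IGF1 and IGFALS kept 0.85, IGF1 and GHR 0.71, IGFALS and IGFBP3 0.76, and IGFBP1 and IGFBP2 0.61. IGF1 and IGFBP2 were then at r = -0.76, against -0.47 before removal.

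The genes most like 5 of the members were ranked by Pearson's r of the same deviations over 29 lambs, out of 12046 named genes of at least 1 CPM. For IGF1 these were IGFALS at 0.86, the splicing regulator MBNL3 at 0.83 and the transglutaminase TGM3 at 0.83, and IGFBP3 and GHR came at ranks 26 and 35. For IGFBP1 they were the insulin receptor substrate IRS2 at 0.87, the phosphatidate phosphatase LPIN1 at 0.79 and the glucose-6-phosphatase gene G6PC1 at 0.73. IGFBP2 was at rank 31 for IGFBP1 and PCK1 at rank 414. For IGF2 they were FGFRL1 at 0.91, CEP250 at 0.90 and PDE3B at 0.90, and STAT5B was at rank 668 despite an r of 0.70. For IGFBP2 they were WASF3 at 0.85, ATG2A at 0.83 and ZBED3 at 0.82. For SOCS2 they were GALNT11 at 0.76, TRIM24 at 0.71 and the leptin receptor LEPR at 0.67, with CISH at rank 2019.

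Spread within groups was larger in biosolids males than in control males for 9 of 10 members. This held for 69.9% of all genes and for 74.7% of the 3779 genes at or above the mean level of STAT5B. For IGF1 the SD of log2 CPM was 0.81 in biosolids males and 0.25 in control males, and for GHR it was 0.44 in biosolids males and 0.19 in control males. Without lamb 8778 it was 0.80 for IGF1 and 0.47 for GHR in biosolids males, and 9 of 10 members still had the larger SD there. Of all genes 56.3% did, and of the 3779 genes 63.7%. IGF2 depended on that lamb, at 0.83 in biosolids males with it and 0.40 without it, against 0.38 in control males. SOCS2 was the exception, at 0.34 in biosolids males and 0.52 in control males. In females 6 of 10 members had the larger SD in biosolids lambs, where 34.2% of all genes and 33.4% of the 3779 did. IGFALS was at 0.94 in biosolids and 0.63 in control females. These spreads are descriptions, with no test.

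Of 36 other genes of the pathway, 35 were in the table and 34 were tested; the prolactin receptor gene was not analysed here. None passed for exposure or its interaction with sex by edgeR's quasi-likelihood test. In males 8 of the 34 had the higher mean in biosolids lambs and 26 the lower, where 51.3% of all genes had the higher. SOCS3, a cytokine-induced inhibitor, averaged 49.6 ± 33.0 CPM in biosolids males and 80.7 ± 24.3 CPM in control males, at a log2 fold change of -0.71 ± 0.33. STAT3, which carries interleukin 6 signals, averaged 322 ± 94.7 CPM in biosolids males and 433 ± 64.6 CPM in control males, at -0.43 ± 0.22. For both, the edgeR quasi-likelihood test gave an adjusted p of 0.816. In females STAT5A was at -0.33 ± 0.14, with 7.74 ± 0.75 CPM in biosolids and 9.72 ± 1.80 CPM in control females, and SOCS1 at -0.64 ± 0.36. Over both sexes HTRA1, a protease that can cleave IGF binding proteins, was at -0.22 ± 0.11. For the interaction STAT3 was at -0.77 ± 0.30 and JAK2 at 0.39 ± 0.17, both with an adjusted p of 0.951 by the edgeR test.

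By sex, 26 of these 34 genes had the higher mean in males over both exposures, where 46.2% of all genes did, and 1 passed. CUX2, a transcription factor that in mouse liver is female-biased and controlled by growth hormone, was higher in males here. It averaged 21.1 ± 12.4 CPM in biosolids males and 22.2 ± 6.41 CPM in control males, and 8.72 ± 3.75 CPM in biosolids females and 8.16 ± 3.46 CPM in control females. Its log2 fold change over both exposures was 1.37 ± 0.22, and the edgeR quasi-likelihood test gave an adjusted p of 0.00101. Within biosolids lambs it was 1.30 ± 0.31 and within controls 1.44 ± 0.31, where that edgeR test gave adjusted p = 0.171 and 0.0761, so it did not pass in either alone. SOCS3 was at 0.91 ± 0.32 in controls but at 0.09 ± 0.32 in biosolids lambs. PAPPA2, a protease that frees IGFs from IGFBP3, was at 1.66 ± 0.70 in biosolids lambs and 0.69 ± 0.69 in controls, at under 2 CPM in every group mean. Neither gene passed. The receptor IGF1R averaged 26.7 ± 6.07 CPM in biosolids males, 25 ± 4.91 CPM in control males, 24.2 ± 4.30 CPM in biosolids females and 21.5 ± 6.32 CPM in control females.

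Because IGFBP1 answers to insulin and fasting, 15 genes of that response were read beside it, and 0 passed in any of these comparisons by edgeR's quasi-likelihood test. In males 4 of 15 had the higher mean in biosolids lambs and 11 the lower, and in females 12 the higher and 3 the lower, where 51.3% of all genes had the higher mean in males and 45.9% in females. ANGPTL4, a fasting-induced inhibitor of lipoprotein lipase, averaged 72.5 ± 20.2 CPM in biosolids males and 108 ± 22.4 CPM in control males, at a log2 fold change of -0.57 ± 0.24, and its interaction was -0.90 ± 0.33. PDK4, which spares pyruvate in fasting, averaged 226 ± 64.9 CPM in biosolids females and 167 ± 63.8 CPM in control females, at 0.43 ± 0.21, and its interaction was -0.66 ± 0.31. FGF21, a hepatokine of fasting, was at 1.27 ± 0.57 over both sexes without passing. Its mean of 15.2 CPM in biosolids males rests on 1 lamb at 71.8 CPM. Its medians were 5.33 CPM in biosolids males and 5.28 CPM in control males, and 7.06 CPM in biosolids females and 3.48 CPM in control females. TXNIP, which limits glucose uptake, was at 0.29 ± 0.14 over both sexes, and TRIB1 at -0.31 ± 0.21 in females. By sex in controls, FOXO1 at 0.49 ± 0.17 and FOXO3 at 0.38 ± 0.15, transcription factors that insulin holds out of the nucleus, were higher in males at an unadjusted p under 0.05 without passing. PCK1 averaged 1834 ± 848 CPM in biosolids males, 2399 ± 563 CPM in control males, 1469 ± 643 CPM in biosolids females and 1515 ± 521 CPM in control females.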

How the data were processed

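Liver RNA of 30 lambs was column purified and sequenced as TruSeq libraries on a NovaSeq, per the labels' protocols. The submitters' processing notes name STAR, featureCounts 1.5.0-p3, Trimmomatic, FastQC and MultiQC. Strand setting and genome build are not given in the sources used here. The authors deposited whole-number gene counts, not normalized, in 1 table, and 0 of its columns were left without a lamb. 7 genes broken over 25 lines were joined. Of the symbols, 28862 were found in RefSeq's ARS-UI_Ramb_v3.0 annotation, and start and end were identical in all 28855 rows with coordinates.

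The tests used edgeR 4.0.16 in R 4.3.3 (filterByExpr, TMM scaling, robust quasi-likelihood test, 1 mean for each of the 4 groups, 26 residual degrees of freedom, Benjamini-Hochberg over 17840 genes, called at 0.05). The biological coefficient of variation was 35.2%. CPM use the TMM-scaled library sizes, so the ribosomal RNA of lamb 8778 (scaling factor 0.151) does not lower its values. Log2 CPM for correlations had a prior count of 2. Standard errors were derived from each F statistic. P-values measure the spread between these lambs, and litters are not labelled. Tests were checked on simulated counts. Alternatives were RLE scaling, DESeq2 1.42.0, limma 3.58.1 voom with sample weights, no filter, at least 1 CPM in 15 libraries, no ribosomal RNA rows, fits within 1 sex, and each lamb left out; the male against female contrast over both exposures, the fit without 3 lambs and the component removal were added after the data were seen.

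The members and lists were chosen with earlier results of these data known. Named were all 10 members, the called genes of the pathway and fasting lists (otherwise the 2 with the smallest p in each comparison) and the 3 genes most like each of 5 members; IGF1R, PCK1, CISH and the lambs singled out were added after their values were seen.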

Additional observations from a re-analysis of the deposited data

Results flagged for a closer look

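In 3 of the 40 groups of a member and a group of lambs, 1 lamb stood far from the rest, in all 3 as the highest. The measure was Dixon's ratio of its gap to the group's range, taken on CPM and not on log2 CPM. Chance flags about 1 in 20 groups of normally distributed values, which CPM were not shown to be. IGFBP2 in biosolids male 8690 was at 5725 CPM, where the next biosolids male had 2261 CPM. IGFBP2 in biosolids female 8775 was at 4836 CPM, where the next biosolids female had 2619 CPM. These 2 lambs also had the highest IGFBP1 of their groups, at 1491 and 1505 CPM, and lamb 8690 had the lowest IGF1 of the biosolids males, at 111 CPM. IGFBP3 in control female 8378 was at 707 CPM, where the next control female had 467 CPM. That lamb also had the highest IGF1 and IGFALS of the control females, at 215 and 230 CPM.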

How the results depend on the processing

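The count of members called was 0 for exposure in males, in females and over both sexes, for the interaction, and for sex within either exposure group under each alternative run, each single lamb left out included. For sex over both exposures the count of members was 0 in the edgeR fit, 2 by DESeq2, 5 by limma voom with sample weights, and between 0 and 1 with a lamb left out. Of 60 log2 fold changes of a member, over all comparisons but exposure over both sexes, 11 took the other sign by limma voom, none of them past the threshold, and the cause was not tested. For exposure these were GHR in females at -0.030, and IGF1 at -0.077, IGFBP1 at -0.76, IGFBP2 at -0.25 and SOCS2 at 0.068 in males. For the interaction they were IGFBP1 at -1.19 and GHR at 0.10. For sex they were IGFBP1 at 0.74 in controls, -0.44 in biosolids lambs and 0.15 over both, and IGFBP2 at 0.030 in biosolids lambs.

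Leaving out single lambs changed the sign of 21 of 60 results, all with a log2 fold change of at most 0.24. For exposure in females their lowest and highest values were -0.37 and 0.0065 for IGF1, -0.29 and 0.028 for IGF2, -0.38 and 0.058 for IGFALS, -0.18 and 0.37 for IGFBP1, -0.26 and 0.030 for IGFBP3 and -0.084 and 0.023 for STAT5B. For exposure in males they were -0.19 and 0.19 for IGF1, -0.10 and 0.37 for IGFBP1, -0.43 and 0.14 for IGFBP2, -0.097 and 0.12 for GHR and -0.21 and 0.020 for SOCS2. For the interaction they were -0.067 and 0.43 for IGF1, -0.22 and 0.33 for IGFBP1, -0.21 and 0.51 for IGFBP2, -0.27 and 0.028 for IGFBP3 and -0.23 and 0.036 for GHR. For sex in biosolids lambs they were -0.22 and 0.26 for IGFBP1, -0.48 and 0.23 for IGFBP2 and -0.030 and 0.076 for IGFBP4, for sex in controls -0.26 and 0.25 for IGFBP1, and over both -0.14 and 0.14 for IGFBP1. The sex differences of IGF1, IGFALS and GHR kept their sign throughout, from 0.88 to 1.12, 0.87 to 1.12 and 0.42 to 0.55 over both exposures.

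Among all genes, the calls for sex in controls were 15 by edgeR, 54 by DESeq2, 64 by limma voom, 3 with at least 1 CPM in 15 libraries, 10 to 23 with a lamb left out and 23 without lambs 8778, 8263 and 8408 together. In biosolids lambs 17 calls became 7 at that filter, and over both exposures 21 became 11 there, 107 by DESeq2 and 3327 by limma voom; with single lambs left out those over both exposures ran from 20 to 51. Without lambs 8778 or 8735 they were 51 and 47. Correlated pairs were 23, 25 by Spearman's rho, and 21 to 27 with a lamb left out. No paired analysis was possible because the groups share no replicate numbers.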
